A study of Mus musculus with 21 samples.

Results

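The amino acid transporter families described here are the mouse genes named in the solute carrier families Slc1, Slc3, Slc6, Slc7, Slc36, Slc38 and Slc43. Of 63 genes with such names among the 39396 genes of the count table, the 52 with at least 30 counts summed over the 21 libraries were taken as members. They comprise 6 of 7 Slc1 genes, 2 of 2 Slc3 genes, 16 of 21 Slc6 genes, 12 of 15 Slc7 genes, 3 of 4 Slc36 genes, 10 of 11 Slc38 genes and 3 of 3 Slc43 genes. The threshold left out Slc6a21 with 26 counts and Slc1a7, Slc6a19 and Slc36a3 with 21 counts each, and the members just inside it were Slc7a10 and Slc36a2 with 35 counts each. A filter on low counts then left 44 members for testing. The other 8, Slc3a1, Slc6a3, Slc6a4, Slc6a5, Slc6a11, Slc6a14, Slc7a10 and Slc36a2, were too low in every group to be tested.

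RNA sequencing covered 7 groups of 3 libraries each, from mouse pluripotent cells of the lines D3 and A2. Ground-state embryonic stem cells of both lines grew in serum medium with 1000 U/mL of the cytokine LIF and the 2i inhibitors, which block the kinases MEK and GSK3. Naive cells were the same cells after 4 days without 2i. For early primitive ectoderm-like (EPL) cells, ground-state cells spent 4 days in serum medium with 330 U/mL LIF and 400 uM added L-proline. Epiblast stem cells (EpiSC) were present for A2 alone. They were recovered from an embryo after A2 cells had been implanted into a pseudopregnant mouse, and were kept in serum replacement with activin A and basic FGF. Each line is 1 cell line, and no label says that the 3 libraries of a group were cultured separately. The p-values therefore measure the spread between these libraries, which may be technical. The lower LIF dose and the added proline go together in EPL cells and cannot be told apart.

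Amino acids do not cross the plasma membrane unaided, so each cell depends on a set of carriers with overlapping substrates. Slc38 carriers of system A import small neutral amino acids such as alanine, glutamine and proline with sodium. Slc7 light chains pair with the heavy chain Slc3a2 (4F2hc, also called CD98) and exchange one amino acid for another. Slc7 cationic carriers import arginine and lysine, Slc1 carriers move glutamate or small neutral amino acids, and Slc6 carriers move glycine, proline, taurine, creatine and neurotransmitters with sodium and chloride. In mouse embryonic stem cells L-proline is known to drive the step to primitive ectoderm-like cells, and the system A carrier Slc38a2 (SNAT2) is known to bring it in.

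Library totals ranged from 15320599 to 23490527 counts. The EpiSC libraries stood apart. The summed level of 10 fibroblast or feeder markers was 2304 to 3043 CPM (counts relative to the TMM-scaled library size) in EpiSC, against 5.52 to 13.2 CPM in all libraries of the other 6 groups, where 1 to 4 of the 10 markers had no count. Col1a1, a fibrillar collagen, averaged 1232 CPM in EpiSC. The pluripotency factor transcripts Pou5f1, Sox2 and Nanog summed to 856 to 1165 CPM in EpiSC, and to at least 1503 CPM in each other library. The 5 markers of the formative and primed stages summed to 139 to 143 CPM in EpiSC, against 833 to 970 CPM in A2 EPL cells and 1484 to 1613 CPM in D3 EPL cells. Most of that sum was Dnmt3b, at 90.4 CPM in EpiSC and 793 CPM in A2 EPL cells. Otx2 and Pou3f1 were also lower in EpiSC than in A2 EPL cells, whereas Fgf5 averaged 12.7 CPM in EpiSC and 4.51 CPM in A2 EPL cells, and T averaged 4.41 CPM in EpiSC and 0.229 CPM in A2 EPL cells. In such bulk samples a lower share of a cell type and less RNA per cell cannot be told apart.

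Every one of the 44 members tested differed among the 7 groups at an adjusted p below 0.05 (edgeR quasi-likelihood test with Benjamini-Hochberg adjustment over 16575 genes), as did 93.6% of all genes tested. The counts of calls here and in later paragraphs include members that passed the filter on low counts through groups where they were high. Slc38a5, Slc6a16 and the floor transcripts given below without a test are such members. Their calls were favoured by the filter and are not read singly. In naive against ground cells 32 of 44 were called, 21 higher and 11 lower, where 63.5% of all genes tested were called, 31.7% higher and 31.8% lower. In EPL against ground cells 37 were called, 23 higher and 14 lower, where 66.3% of all genes were called, 33.1% higher and 33.2% lower. In EPL against naive cells the count was 30, 16 higher and 14 lower, where 51.2% of all genes were called, 27.1% higher and 24.1% lower. In D3 alone this comparison called 29 members, where 44.9% of all genes were called, and in A2 alone 15, where 32.8% were called. Within A2, EpiSC against EPL cells gave 35 calls, 21 higher and 14 lower, where 70.4% of all genes were called, 39.1% higher and 31.3% lower. EpiSC against ground cells gave 42, 26 higher and 16 lower, where 73.2% were called, 39.1% higher and 34.1% lower. EpiSC against naive cells gave 32, 18 higher and 14 lower, where 70.3% were called, 39.1% higher and 31.2% lower. D3 against A2, averaged over the 3 stages that both lines share, gave 25 calls, 11 higher and 14 lower, where 40.7% of all genes were called, 20.0% higher and 20.7% lower, and at the ground stage alone 16, where 20.1% were called. Between 51.2% and 73.2% of the genes tested were called in each comparison of stages that uses all its libraries, so the accounts that follow turn on which carriers moved and how far. The median size of the change between EPL and ground cells, in either direction, was 0.85 on the log2 scale over the 44 members, beside 0.42 over all genes tested, and between naive and ground cells it was 0.60, beside 0.39.

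**Figure D1:**
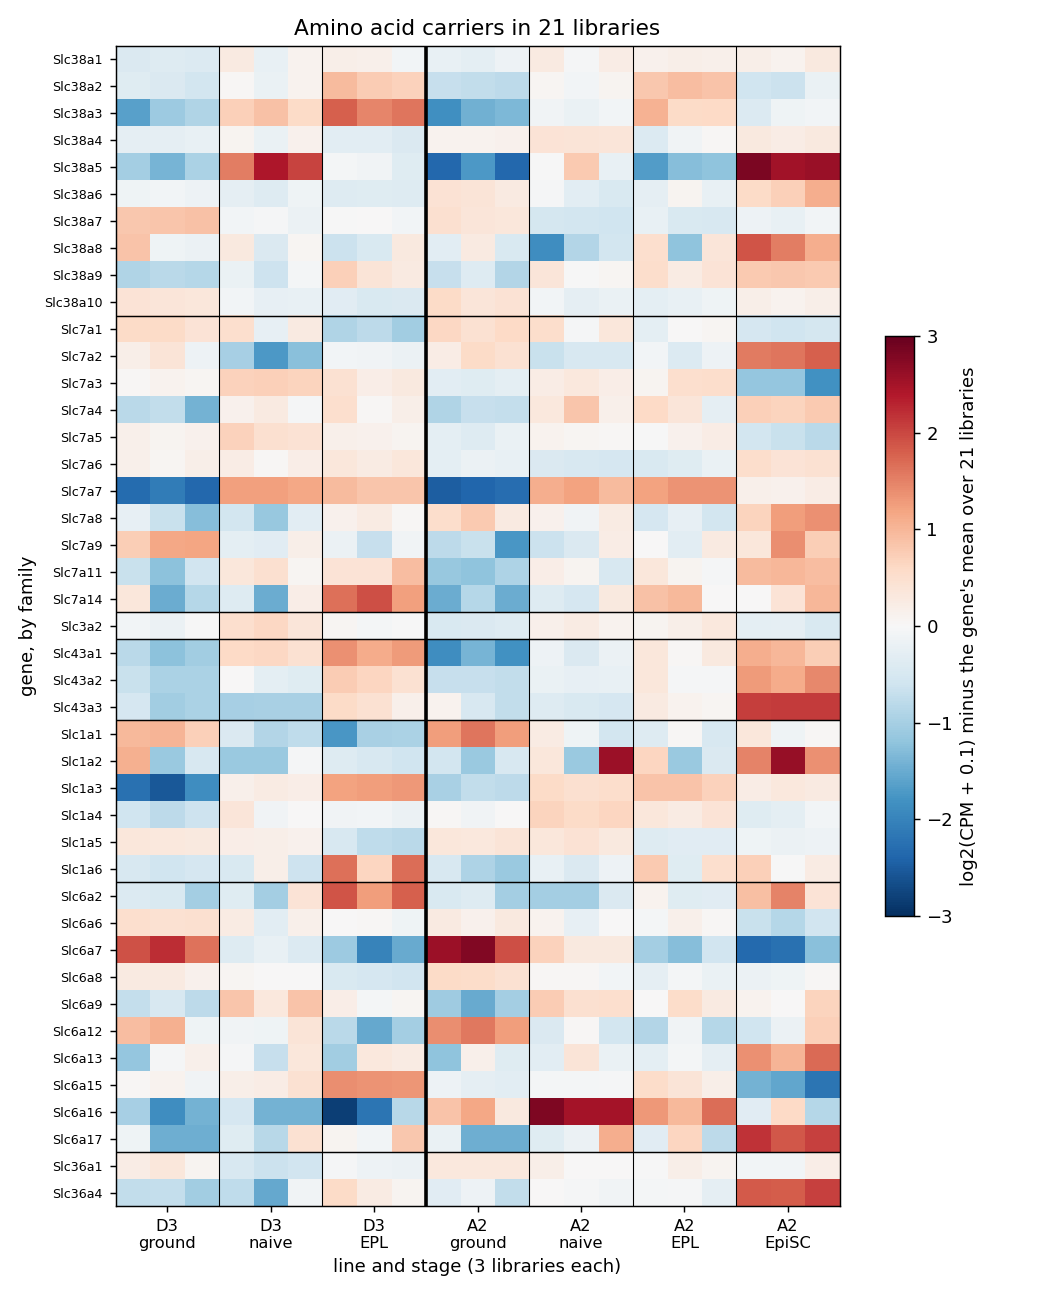
Heat map of 43 of the 44 members tested (rows, by family) in 21 libraries (columns, by line and stage), with colour giving log2(CPM + 0.1) minus the gene's mean over all libraries. Slc7a7 and Slc1a3 are low in both sets of ground-state libraries, Slc6a7 is high there, and Slc38a5, Slc36a4 and Slc43a3 are high in EpiSC.

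Compared per length of exon, Slc7a5 (LAT1, the exchanger for leucine and other large neutral amino acids) had the highest mean level of the members in all 7 groups, from 70.5 CPM per kb in EpiSC to 163 CPM per kb in D3 naive cells, and its partner Slc3a2 came next in each. Between 12 and 14 members reached 10 CPM per kb in a group, while 29 to 32 stayed under 1 CPM per kb. Slc7a3, Slc38a4, Slc6a8 and Slc6a6 shared the places below Slc3a2 in ground-state cells. Slc38a2 was in place 7 in D3 ground cells and in place 8 in A2 ground cells, and in place 4 in EPL cells of both lines. The summed level of all 52 members was 2744 ± 39.2, 3241 ± 210 and 2943 ± 156 CPM in D3 ground, naive and EPL cells, and 2534 ± 69.7, 2943 ± 99.6, 3138 ± 191 and 2269 ± 62.9 CPM in A2 ground, naive, EPL and EpiSC (SD, n = 3 each).

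After 2i withdrawal the transcript of Slc7a7 (y+LAT1, ENSMUSG00000000958) rose 11-fold in both lines. It encodes a light chain that sends out arginine or lysine in exchange for neutral amino acids and sodium, and its loss in humans causes lysinuric protein intolerance. In D3 the ground-state libraries had 14.6, 16.9 and 14 CPM of Slc7a7, the naive libraries 169, 170 and 161 CPM, and the EPL libraries 139, 128 and 129 CPM. In A2 the ground-state libraries had 12.9, 13.9 and 14.8 CPM, the naive libraries 154, 166 and 140 CPM, the EPL libraries 167, 184 and 185 CPM, and the EpiSC libraries 80, 78.5 and 84.9 CPM. No ground-state library came near any other library. The naive over ground change was 3.46 on the log2 scale (SE 0.06, adjusted p = 2.08e-21, edgeR). It was 3.45 in D3 alone and 3.47 in A2 alone. EPL against ground gave 3.40 (SE 0.06, adjusted p = 1.15e-21, edgeR). Slc7a7 lies on chromosome 14 (GRCm38, 54369442 to 54417780, minus strand). The library kit does not mark the strand, and 7.0% of the Slc7a7 exon bases overlap Oxa1l on the other strand. Oxa1l showed no such rise, with 124, 99.8 and 96.9 CPM in D3 ground, naive and EPL cells and 116, 93.7 and 96.8 CPM in A2 ground, naive and EPL cells.

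Promoter windows, from 250 bases before to 50 bases after a start, were available from RefSeq (GRCm38.p6) for 37 of the 52 members, and not for the other 15, Slc1a5, Slc7a3, Slc7a5, Slc38a1 and Slc43a3 among them. Both strands were searched for TGATGNAA, the core of the amino acid response element through which ATF4 with C/EBP factors is known to act. It was present in windows of 3 of the 37 members (8.11%), against 4.51% of all genes with a window. The 3 members are shown because 2 of them, Slc7a7 and Slc7a11, were described here for their rises after 2i withdrawal, and the third, Slc1a4, rose as well. The capitals mark the element, which appears as its reverse complement where it lies on the opposite strand. The Slc7a7 window is the most upstream of 5 and covers chr14:54417895-54418194 on the minus strand, with elements beginning 141 bases and 1 base before the start. A neighbouring window holds the second of these elements again, and the remaining 3 hold none. The Slc7a11 window covers chr3:50443564-50443863 on the minus strand, with elements beginning 66 and 47 bases before the start, the nearer on the opposite strand. The Slc1a4 window covers chr11:20332664-20332963 on the minus strand, with 1 element beginning 4 bases before the start, on the opposite strand.
Slc7a7: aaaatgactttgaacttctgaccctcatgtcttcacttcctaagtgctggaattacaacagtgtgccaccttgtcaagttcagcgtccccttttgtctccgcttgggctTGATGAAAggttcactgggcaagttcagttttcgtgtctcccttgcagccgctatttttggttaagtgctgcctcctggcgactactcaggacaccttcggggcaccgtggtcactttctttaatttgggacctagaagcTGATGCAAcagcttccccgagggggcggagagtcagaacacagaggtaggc
Slc7a11: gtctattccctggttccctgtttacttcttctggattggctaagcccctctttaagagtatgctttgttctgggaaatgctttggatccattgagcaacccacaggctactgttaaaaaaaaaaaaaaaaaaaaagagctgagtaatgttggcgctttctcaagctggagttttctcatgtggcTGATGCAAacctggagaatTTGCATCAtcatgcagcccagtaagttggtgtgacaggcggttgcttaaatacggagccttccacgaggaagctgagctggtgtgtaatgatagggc
Slc1a4: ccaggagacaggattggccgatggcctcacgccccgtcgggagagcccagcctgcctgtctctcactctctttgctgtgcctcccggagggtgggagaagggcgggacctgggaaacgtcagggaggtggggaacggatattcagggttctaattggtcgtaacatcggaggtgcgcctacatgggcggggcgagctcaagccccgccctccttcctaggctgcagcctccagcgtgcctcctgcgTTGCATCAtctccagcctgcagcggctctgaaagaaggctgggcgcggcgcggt
None of these 3 windows held the antioxidant response element TGACNNNGC, bound by NRF2, which was found in windows of 9 of the 37 members (24.3%), against 14% of all genes with a window. The letters describe the window only. The transcript of Atf4 itself was lower by 0.16 in naive than in ground cells and by 0.60 in EPL than in ground cells on the log2 scale (adjusted p = 0.00851 and 3.39e-10, edgeR). These libraries do not measure ATF4 protein, and its part in the changes of these members was not tested.

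**Figure D2:**
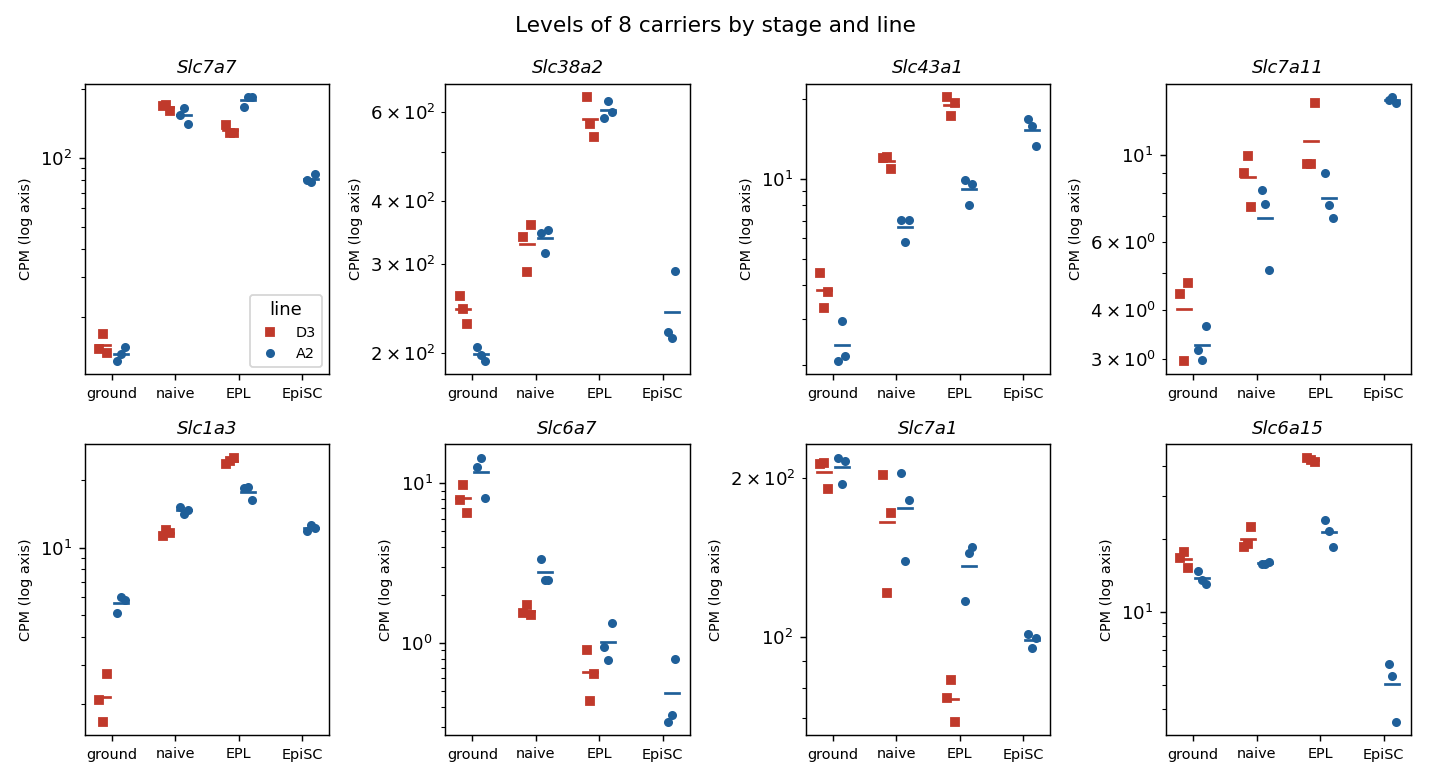
Levels of 8 carriers (CPM, log axes that differ between panels) by stage, with D3 as squares and A2 as circles, 1 point per library and a bar at the group mean of 3 libraries. Slc7a7 is higher in naive than in ground cells and Slc38a2 is highest in EPL cells of both lines, while Slc6a7 is lower at each stage after ground.

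The heavy chain and the light chains did not all move alike. Slc3a2 rose by 0.60 in naive against ground cells (SE 0.05, adjusted p = 1.5e-09, edgeR) and Slc7a5 rose by 0.38 (SE 0.06, adjusted p = 2.37e-06). Slc7a6 (y+LAT2), close kin of Slc7a7, was not called there, with 58.8 CPM in naive and 62.4 CPM in ground cells (adjusted p = 0.0596). In A2 alone Slc7a6 was called lower (-0.24, adjusted p = 0.00626), in D3 alone the change was 0.03 (adjusted p = 0.782), and the difference between the lines was not called (0.27, adjusted p = 0.17). Per length of exon, and described without a test because this grouping was made after the values were seen, Slc7a7 made up 21.9% ± 1.28 of the summed light chains of Slc3a2 in D3 naive cells, against 3.22% ± 0.406 in D3 ground cells (SD, n = 3). In A2 the shares were 26.5% ± 1.64 in naive and 3.84% ± 0.23 in ground cells. Slc7a5 made up 70.9% in D3 naive and 85.7% in D3 ground cells, and 67.3% in A2 naive and 84.5% in A2 ground cells. In EpiSC the shares were 60.7% for Slc7a5, 21.1% for Slc7a7 and 16.7% for Slc7a6.

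Slc7a11 (xCT) is the light chain that takes up cystine in exchange for glutamate and feeds glutathione synthesis. It had 4.41, 2.97 and 4.71 CPM in D3 ground, 8.98, 9.97 and 7.37 CPM in D3 naive, and 9.47, 9.48 and 13.6 CPM in D3 EPL libraries. In A2 it had 3.17, 2.98 and 3.64 CPM in ground, 8.13, 7.50 and 5.07 CPM in naive, 8.98, 7.43 and 6.88 CPM in EPL, and 13.8, 14.1 and 13.6 CPM in EpiSC libraries. Every ground-state library lay below every other library. The naive over ground change was 1.10 (SE 0.14, adjusted p = 4.59e-07, edgeR) and the EPL over ground change 1.35 (SE 0.14, adjusted p = 1.39e-08). Slc1a1 (EAAC1), a glutamate carrier that also takes up cysteine, fell by 1.59 in naive and by 1.92 in EPL against ground cells (adjusted p = 8.20e-09 and 5.26e-10), although 31.9% of its exon bases overlap 4430402I18Rik on the other strand. Of 10 genes of glutathione synthesis and cystine response outside the families, 4 rose (Chac1, Gclm, Ggt1 and Ggt7) and 4 fell (Gsr, Gss, Keap1 and Nfe2l2) in naive against ground cells, with a median of 0.02, beside 0.01 over all genes tested, of which 31.7% rose and 31.8% fell. The rise of Ggt7 was seen in A2 only, at 1.34 CPM in naive and 0.56 CPM in ground cells. In D3 it averaged 1.43 CPM in naive and 1.6 CPM in ground cells.

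Among the carriers of arginine and lysine, Slc7a3 (CAT3) was higher and Slc7a1 (CAT1) lower in EPL than in ground cells, by 0.48 and 1.03 on the log2 scale, and both were lower in EpiSC than in ground, naive or EPL cells of A2. In D3 alone the change of Slc7a3 in EPL against ground cells was 0.25 and not called (adjusted p = 0.0926, edgeR). In EPL against naive cells of D3, Slc7a3 was lower by 0.38 (adjusted p = 0.0156). Slc7a3 had 338, 344 and 330 CPM in D3 naive and 215, 223 and 219 CPM in D3 ground libraries, and 244, 260 and 240 CPM in A2 naive and 167, 162 and 171 CPM in A2 ground libraries, a rise of 0.60 (SE 0.09, adjusted p = 3.04e-06, edgeR). The fall of Slc7a1 in EPL against ground cells had an SE of 0.10 (adjusted p = 5.38e-09). Its EPL libraries had 76.3, 82.8 and 68.9 CPM in D3 and 117, 144 and 148 CPM in A2, against 213, 214 and 191 CPM in D3 ground and 219, 195 and 216 CPM in A2 ground libraries. The smaller fall in naive against ground cells (0.29 lower, adjusted p = 0.0147) was not called with scaling to the total count (adjusted p = 0.0615), nor without the second A2 naive library (adjusted p = 0.0522). Slc7a2 (CAT2) fell by 1.27 in naive against ground cells (SE 0.14, adjusted p = 4.87e-08), with 1.39 CPM in naive and 3.25 CPM in ground cells. Per length of exon, Slc7a1 made up 23.5%, 13.8% and 8.78% of the sum of these 3 carriers in D3 ground, naive and EPL cells, and 29.1%, 18.8% and 14.1% in A2 ground, naive and EPL cells.

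**Figure D3:**
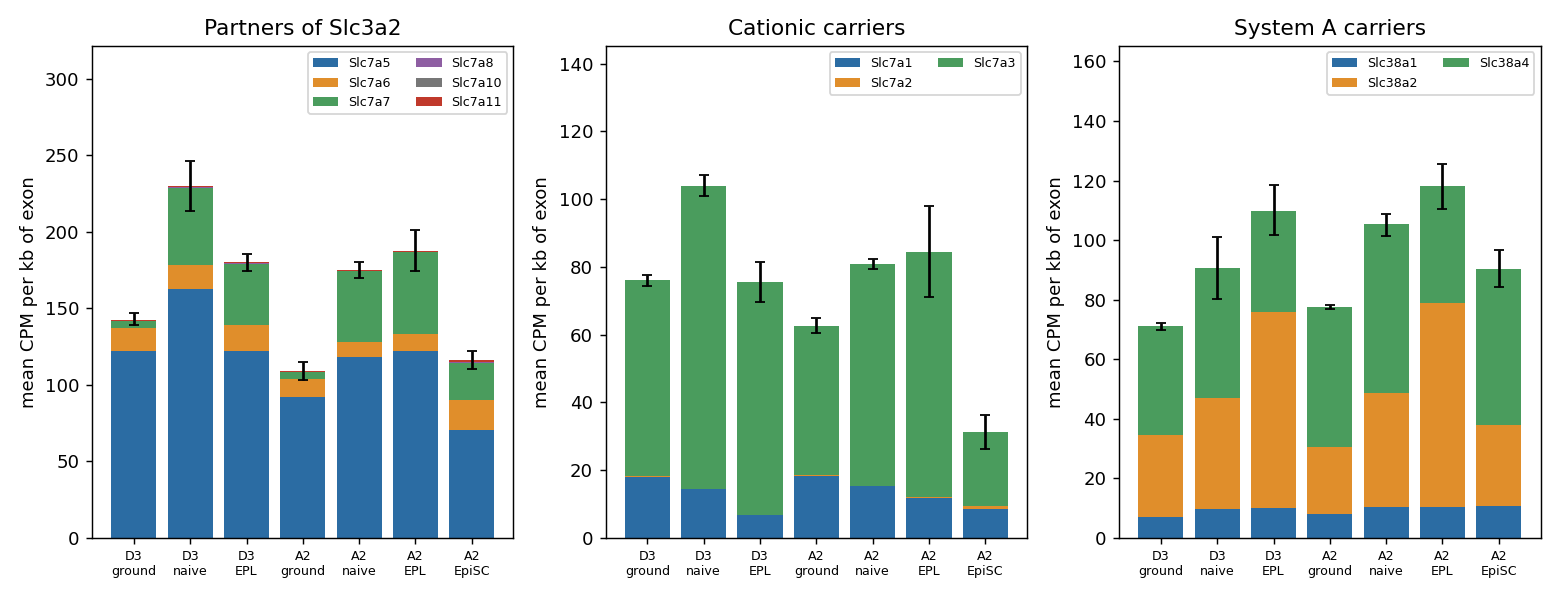
Stacked mean levels per length of exon (CPM per kb, mean of 3 libraries, error bars the SD of the sum) of the light chains of Slc3a2, the cationic carriers and the system A carriers in 7 groups. Slc7a7 takes 21.1% to 28.7% of the light chains in the naive, EPL and EpiSC groups and 3.22% and 3.84% in the ground-state groups, and Slc38a2 takes 60.0% and 58.1% of system A in D3 and A2 EPL cells.

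In the Slc38 family, which holds systems A and N, 6 of 10 members rose and 3 fell in naive against ground cells, 5 rose and 4 fell in EPL against ground cells, and 4 rose and 3 fell in EPL against naive cells. Over all genes tested the shares higher and lower were 31.7% and 31.8%, 33.1% and 33.2%, and 27.1% and 24.1% in these comparisons. Slc38a2 (SNAT2) had 259, 245 and 228 CPM in D3 ground, 339, 289 and 359 CPM in D3 naive, and 643, 567 and 536 CPM in D3 EPL libraries. In A2 it had 206, 198 and 193 CPM in ground, 346, 316 and 351 CPM in naive, 585, 631 and 599 CPM in EPL, and 220, 214 and 291 CPM in EpiSC libraries. The EPL libraries of both lines lay above every library of the other stages. The EPL over naive change was 0.83 (SE 0.07, adjusted p = 3.02e-09, edgeR), with 0.82 in D3 alone and 0.84 in A2 alone, and the EPL over ground change was 1.43 (SE 0.07, adjusted p = 5.18e-14), a 2.69-fold rise. The naive over ground change was 0.60 (SE 0.07, adjusted p = 1.66e-07).

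Slc38a4 (SNAT4), the other abundant system A carrier, fell by 0.45 in EPL against naive cells (SE 0.06, adjusted p = 2.24e-06), after a rise of 0.27 in naive against ground cells (adjusted p = 0.000581). It had 149, 148 and 136 CPM in D3 EPL and 195, 162 and 201 CPM in D3 naive libraries, and 139, 173 and 189 CPM in A2 EPL and 246, 241 and 239 CPM in A2 naive libraries. Slc38a1 (SNAT1) rose by 0.43 in naive against ground cells (SE 0.07, adjusted p = 1.32e-05) and was not called in EPL against naive cells, where it averaged 174 CPM in the first and 173 CPM in the second (adjusted p = 0.924). Per length of exon Slc38a2 made up 38.9%, 41.1% and 60.0% of the summed system A transcripts in D3 ground, naive and EPL cells, and 29.0%, 36.2% and 58.1% in A2 ground, naive and EPL cells. Slc38a4 held 51.2%, 48.2% and 30.9% in the same D3 groups and 60.8%, 54.0% and 33.1% in the A2 groups.

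System N carriers move glutamine, asparagine and histidine. Slc38a3 (SNAT3) rose by 1.77 in naive against ground cells and by 0.92 in EPL against naive cells (SE 0.16 and 0.13, adjusted p = 3.15e-09 and 4.28e-06), with 7.59, 5.98 and 6.64 CPM in D3 EPL, 3.54, 3.93 and 3.16 CPM in D3 naive, 4.43, 3.18 and 3.26 CPM in A2 EPL and 1.96, 1.81 and 2 CPM in A2 naive libraries. Slc38a5 (SNAT5) was highest in naive cells among the stages that both lines share. It had 0.152, 0.093 and 0.164 CPM in D3 ground, 1.37, 2.66 and 1.99 CPM in D3 naive, and 0.389, 0.377 and 0.300 CPM in D3 EPL libraries, and 0.404, 0.784 and 0.341 CPM in A2 naive and 0.0591, 0.112 and 0.121 CPM in A2 EPL libraries. The A2 ground libraries held 1 count of it in all, the A2 EPL libraries 1, 2 and 2 counts, and the D3 EPL libraries 6, 7 and 7. Slc38a5 passed the filter on low counts through groups where it was high, so no fold or test is given. Slc38a7 (SNAT7), a lysosomal glutamine carrier, fell by 0.95 in naive against ground cells (SE 0.05, adjusted p = 2.28e-13), and Slc38a9, the lysosomal arginine sensor of the mTORC1 pathway, rose by 1.20 in EPL against ground cells (SE 0.11, adjusted p = 2.48e-09).

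Among 10 carriers known to take proline, 7 were tested, and 4 rose and 3 fell in EPL against naive cells, where 27.1% of all genes tested rose and 24.1% fell. Slc38a2 and Slc6a15 (B0AT2, a carrier of branched-chain amino acids and proline) rose, with Slc6a15 up by 0.75 (SE 0.09, adjusted p = 2.59e-07, edgeR). It had 43.2, 42.1 and 41.3 CPM in D3 EPL and 18.6, 19.1 and 22.4 CPM in D3 naive libraries, and 23.9, 21.5 and 18.5 CPM in A2 EPL and 15.7, 15.8 and 16.1 CPM in A2 naive libraries. The proton-coupled carriers Slc36a1 (PAT1) and Slc36a4 (PAT4) were the other risers, by 0.23 and 0.48 (adjusted p = 0.00694 and 0.0248), and both rises came from D3. In D3 they rose by 0.45 and 1.03 (adjusted p = 0.000703 and 0.00178), while in A2 the changes were 0.01 and -0.07 (adjusted p = 0.952 and 0.855), and both differences between the lines were called (adjusted p = 0.0341 and 0.0383). These 2 calls depended on single libraries, and were kept in only 9 and 10 of the 21 fits that leave out 1 library. Slc38a4, Slc1a4 and Slc6a7 fell. Slc6a7 (PROT), the high-affinity proline carrier of brain synapses, was highest in ground-state cells. It had 7.90, 9.81 and 6.51 CPM in D3 ground, 1.54, 1.72 and 1.5 CPM in D3 naive, and 0.908, 0.431 and 0.642 CPM in D3 EPL libraries. In A2 it had 12.6, 14.5 and 8.10 CPM in ground, 3.34, 2.50 and 2.49 CPM in naive, 0.945, 0.782 and 1.33 CPM in EPL, and 0.322, 0.352 and 0.792 CPM in EpiSC libraries. It fell by 2.22 in naive and by 3.58 in EPL against ground cells (SE 0.17 and 0.20, adjusted p = 1.80e-10 and 3.85e-13).

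All 3 Slc43 members rose in EPL against ground cells and in EPL against naive cells, where 33.1% and 27.1% of all genes tested rose. Slc43a1 (LAT3) and Slc43a2 (LAT4) let large neutral amino acids pass without sodium, and Slc43a3 is known as a carrier of purine nucleobases. Slc43a1 had 4.46, 3.30 and 3.78 CPM in D3 ground, 12, 12.1 and 10.9 CPM in D3 naive, and 20.4, 17.3 and 19.4 CPM in D3 EPL libraries. In A2 it had 2.08, 2.93 and 2.17 CPM in ground, 7.03, 5.83 and 7.02 CPM in naive, 9.98, 8.04 and 9.60 CPM in EPL, and 16.8, 15.8 and 13.3 CPM in EpiSC libraries. Within each line the libraries of ground, naive and EPL cells did not overlap. The naive over ground change was 1.54 (SE 0.11, adjusted p = 2.41e-11, edgeR) and the EPL over ground change 2.13 (SE 0.10, adjusted p = 3.28e-14). Slc43a2 rose by 1.14 and Slc43a3 by 0.84 in EPL against ground cells (adjusted p = 5.86e-11 and 5.18e-06). Of Slc43a2 exon bases, 9.18% overlap Gm45606 on the other strand.

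In the Slc1 family the glutamate carrier Slc1a3 (GLAST) rose by 1.91 in naive and by 2.58 in EPL against ground cells (SE 0.08 each, adjusted p = 8.57e-15 and 1.83e-17). It had 2.08, 1.67 and 2.74 CPM in D3 ground, 11.3, 12 and 11.7 CPM in D3 naive, and 23.6, 24.5 and 25.3 CPM in D3 EPL libraries, and 5.11, 6.02 and 5.87 CPM in A2 ground, 15.2, 14.2 and 14.7 CPM in A2 naive, and 18.5, 18.6 and 16.4 CPM in A2 EPL libraries. Slc1a5 (ASCT2), the exchanger that brings glutamine into dividing cells, was not called in naive against ground cells (a difference of -0.07, adjusted p = 0.241) and fell by 0.78 in EPL against naive cells (SE 0.05, adjusted p = 4.51e-11). It had 49.4, 40.3 and 38.8 CPM in D3 EPL and 78.8, 77.9 and 74.5 CPM in D3 naive libraries, and 52.6, 53.9 and 54.1 CPM in A2 EPL and 87.4, 92.4 and 83.3 CPM in A2 naive libraries, with no overlap. Its relative Slc1a4 (ASCT1), a carrier of alanine, serine, cysteine and threonine, rose by 0.72 in naive against ground cells (SE 0.07, adjusted p = 6.66e-09). Slc1a6 (EAAT4), a glutamate carrier of cerebellar neurons, was near the floor, with 1.71 CPM in EPL and 0.671 CPM in naive cells, and rose by 1.24 (SE 0.25, adjusted p = 0.000287), a rise not called in A2 alone (0.70, adjusted p = 0.158).

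Of 11 Slc6 members tested, 5 rose and 4 fell in naive against ground cells, and 2 rose and 6 fell in EPL against naive cells, beside 31.7% and 31.8%, and 27.1% and 24.1%, of all genes tested. The abundant carriers of taurine, Slc6a6 (TauT), and creatine, Slc6a8 (CRT), both fell in naive against ground cells, by 0.36 and 0.37 (adjusted p = 0.000412 and 6.97e-07). Slc6a8 had 116, 113 and 108 CPM in D3 EPL and 194, 193 and 176 CPM in D3 ground libraries, and 132, 153 and 140 CPM in A2 EPL and 238, 233 and 218 CPM in A2 ground libraries, a fall of 0.72 (SE 0.05, adjusted p = 1.09e-11). Slc6a9 (GlyT1), the glycine carrier, rose by 1.59 in naive against ground cells (SE 0.15, adjusted p = 3.61e-09), with 6.22 CPM in naive and 2.08 CPM in ground cells. Exons of Ccdc24 on the other strand overlap 27.8% of its exon bases, and Ccdc24 stayed at or under 0.0956 CPM in every group.

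The lines' changes were compared for all 44 members tested with the interaction of line and stage, taken as the D3 change minus the A2 change. From ground to naive, 3 members differed between the lines, where 3.06% of all genes tested did, 1.51% with a higher and 1.56% with a lower change in D3. Among them were Slc1a3, with the higher change in D3, and Slc36a1 with the lower one. From naive to EPL, 14 differed, 8 with a higher change in D3 and 6 with a lower one, where 12.7% of all genes did, 6.78% higher and 5.93% lower. The count of 14 rested on single libraries. It was 7 without the third A2 naive or the third A2 EPL library, 8 without the first A2 naive, the second D3 naive or the second D3 EPL library, and 9 without the second A2 EPL library. With RLE size factors it was 12, 5 higher and 7 lower. Slc7a1, Slc7a7, Slc3a2, Slc7a5 and Slc1a3 were called without any 1 of the 21 libraries. Slc7a7, Slc3a2 and Slc7a5 fell in D3, by 0.34, 0.50 and 0.42 in EPL against naive cells (adjusted p = 0.000866, 1.15e-05 and 0.000138), while in A2 the changes were 0.22, 0.03 and 0.06 (adjusted p = 0.0281, 0.830 and 0.632), and the differences between the lines were -0.55, -0.53 and -0.48 (adjusted p = 0.00126, 0.00195 and 0.00582). Slc7a1 fell by 1.12 in D3 and changed by -0.36 in A2 (adjusted p = 0.0519), a difference of -0.76 (SE 0.20, adjusted p = 0.0141). Slc1a3 rose by 1.07 in D3 and by 0.28 in A2, a difference of 0.79 (SE 0.14, adjusted p = 0.000812).

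**Figure D4:**
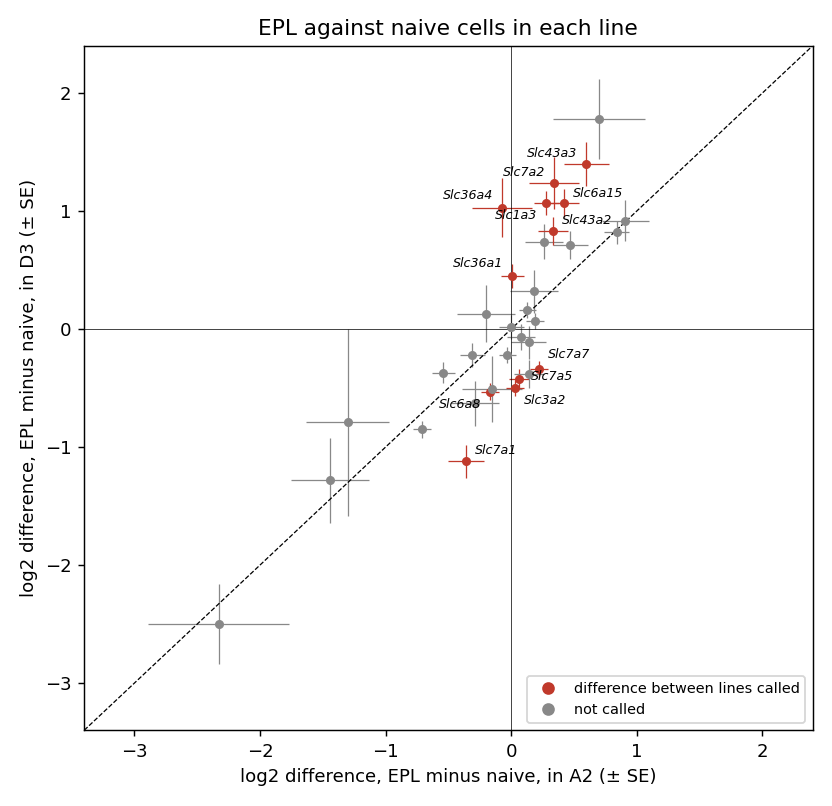
EPL minus naive differences (log2, ± SE) in A2 (horizontal) and D3 (vertical) for 34 members whose mean reached 2 CPM in one of the 4 groups. Points on the dashed line changed equally, and the 12 in red differed between the lines at an adjusted p below 0.05, with Slc7a1 below the line at -1.12 in D3 and -0.36 in A2.

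EpiSC are described within A2, against EPL cells, and 4 marker lists of other cell types had higher sums in EpiSC. The fibroblast or feeder markers summed to 2304 to 3043 CPM in EpiSC and 7.56 to 9.16 CPM in A2 EPL libraries, the 6 primitive endoderm markers to 107 to 147 CPM in EpiSC and 10.3 to 19.7 CPM in EPL, and the 4 trophoblast markers to 24.6 to 26.5 CPM in EpiSC and 2.95 to 3.46 CPM in EPL. Most of the trophoblast sum was Eomes, at 22.3 CPM in EpiSC and 2.38 CPM in EPL cells. Gata3, Cdx2 and Elf5 averaged 2.43, 0.799 and 0.0686 CPM in EpiSC and 0.345, 0.462 and 0.0201 CPM in EPL cells. The 4 neural markers summed to 304 to 443 CPM in EpiSC and 116 to 122 CPM in EPL libraries, and they did not go one way. Nes averaged 249 CPM in EpiSC and 25.4 CPM in EPL cells and Sox1 33.4 CPM in EpiSC and 2.08 CPM in EPL cells. By contrast Pax6 averaged 9.8 CPM in EpiSC and 14.3 CPM in EPL cells and Tubb3 66.8 CPM in EpiSC and 77.3 CPM in EPL cells. Their part in these differences was not tested. Among the higher members, Slc38a5 had 3.54, 2.82 and 3 CPM in EpiSC and 0.0591, 0.112 and 0.121 CPM in A2 EPL libraries. These EPL libraries held 1, 2 and 2 counts of it. It passed the filter on low counts through groups where it was high, so no fold or test is given. Slc36a4 (PAT4), a carrier that serves proline and tryptophan, had 9.56, 9.35 and 11.1 CPM in EpiSC and 2.48, 2.51 and 2.11 CPM in EPL libraries. This was a rise of 2.07 (SE 0.21, adjusted p = 1.29e-08, edgeR). Slc43a3 had 18.6, 18.7 and 18.8 CPM in EpiSC and 5.20, 4.63 and 4.47 CPM in EPL libraries (1.97, SE 0.16, adjusted p = 3.05e-10). Slc7a2 rose by 1.90, Slc7a8 (LAT2) by 1.64 and Slc43a2 by 1.19 (adjusted p = 1.33e-09, 7.21e-06 and 4.11e-09). These members were chosen for large changes, which favours the lack of overlap seen between their EpiSC and EPL libraries.

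Among the members lower in EpiSC than in EPL cells were Slc6a15, the cationic carrier Slc7a3 and the partners Slc7a5 and Slc3a2. Slc6a15 had 6.11, 5.48 and 3.54 CPM in EpiSC and 23.9, 21.5 and 18.5 CPM in A2 EPL libraries, a fall of 2.08 (SE 0.14, adjusted p = 9.58e-12, edgeR). Slc7a3 had 93.1, 93.7 and 59.6 CPM in EpiSC and 221, 297 and 303 CPM in EPL libraries, a fall of 1.74 (SE 0.13, adjusted p = 6.07e-11). Slc38a2 fell by 1.32, Slc7a7 by 1.14, Slc7a5 by 0.79 and Slc3a2 by 0.54 (adjusted p = 1.28e-10, 1.09e-11, 8.12e-09 and 1.43e-06). With scaling to the total count the median of all genes tested was 0.27, beside 0.07 with TMM factors, and Slc7a1, which was 0.47 lower with TMM factors, was not called (-0.27, adjusted p = 0.114). No member named in this comparison changed its direction with that scaling.

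Against ground-state cells of the same line, the transcripts with the largest rises in EpiSC, among members with at least 2 CPM there and over 3 counts in the ground libraries, were Slc43a1, Slc7a7, Slc43a3 and Slc36a4, at 2.68, 2.55, 2.42 and 2.35 (adjusted p = 4.02e-13, 7.03e-17, 1.03e-11 and 1.76e-09, edgeR). Slc38a5 had 3.12 CPM in EpiSC against 1 count in the 3 ground-state libraries together. Slc6a7 fell by 4.56 (SE 0.29, adjusted p = 4.05e-12). Slc38a2 was higher by 0.28 (adjusted p = 0.0156), but by 0.11 and not called without the third EpiSC library (adjusted p = 0.267). Against naive cells, Slc43a3 rose by 2.57, Slc7a2 by 2.25 and Slc36a4 by 2.00, and Slc6a15 fell by 1.66 (adjusted p = 6.89e-12, 1.13e-10, 1.58e-08 and 4.89e-10). Slc6a16 averaged 0.576 CPM in EpiSC and 4.2 CPM in A2 naive cells. It passed the filter on low counts through groups where it was high, so no fold or test is given. These comparisons share the EpiSC libraries with the one before, and the marker levels given there stand beside them too.

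**Figure D5:**
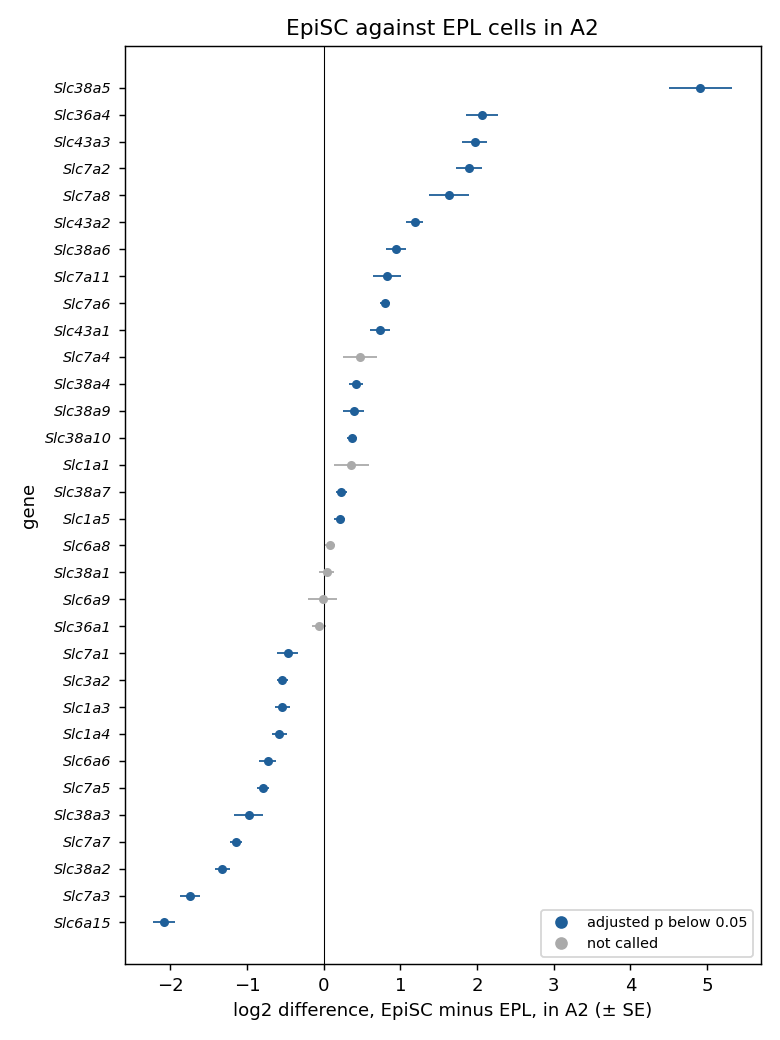
Log2 differences of EpiSC minus EPL cells of A2 (± SE) for 32 members whose mean reached 2 CPM in either group, with called members in blue. Of these, 15 are higher and 11 lower in EpiSC. Apart from Slc38a5, they range from 2.07 for Slc36a4 to -2.08 for Slc6a15. The point of Slc38a5, counted among the 15, rests on 1, 2 and 2 counts in the EPL libraries and is not read as a fold.

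The remaining members were an abundant Slc38 gene and a set of transcripts near the floor, named here after their values were seen. Slc38a10, whose transport role is little described, fell by 0.60 in naive and by 0.72 in EPL against ground cells (adjusted p = 3.6e-10 and 9.38e-12, edgeR). Slc38a6 averaged 15.8 CPM in EpiSC and 8.24 CPM in A2 EPL cells, a rise of 0.94 (SE 0.13, adjusted p = 1.56e-06). Slc7a4, a relative of the cationic carriers, rose by 1.22 in naive against ground cells (SE 0.18, adjusted p = 4.4e-06), with 2.4 CPM in naive and 1.02 CPM in ground cells, and 13.3% of its exon bases overlap P2rx6 on the other strand.

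The neural carriers Slc6a17, Slc1a2, Slc6a2, Slc7a14 and Slc38a8, the betaine and GABA carriers Slc6a12 and Slc6a13, and the cystine carrier Slc7a9 did not exceed 1.24 CPM in any library. Each passed the filter on low counts through the groups where it was high, so their levels are given without a test. Slc6a12 averaged 0.0658 CPM in EPL and 0.527 CPM in ground cells. Slc6a17, a vesicular carrier of neutral amino acids, had 1.15, 0.9 and 1.04 CPM in EpiSC and 0.118, 0.335 and 0.0603 CPM in A2 EPL libraries. Slc6a13 had 0.781, 0.587 and 1 CPM in EpiSC and 0.177, 0.223 and 0.181 CPM in A2 EPL libraries. The 8 members that were not tested stayed at or below 1.08 CPM in every library, a level that the GABA carrier Slc6a11 reached in the second D3 EPL library.

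Between the lines Slc6a16, an orphan carrier of the Slc6 family, differed in level, and D3 cells almost lacked it. It had 0.253, 0.093 and 0.164 CPM in D3 ground and 1.18, 1.49 and 0.761 CPM in A2 ground libraries, 0.400, 0.166 and 0.166 CPM in D3 naive and 4.84, 3.87 and 3.90 CPM in A2 naive libraries, and 0, 0.0539 and 0.300 CPM in D3 EPL and 1.65, 1.28 and 2.17 CPM in A2 EPL libraries. Slc6a16 passed the filter on low counts through A2 groups, so its difference between the lines is given without a test. D3 minus A2 was -3.45 on the log2 scale over the 3 stages. It was -2.72, -4.08 and -3.56 at the ground, naive and EPL stages. Slc43a1 and Slc7a6 were higher in D3, by 0.85 and 0.54 (SE 0.08 and 0.04, adjusted p = 3.05e-08 and 2.87e-10, edgeR). Slc43a1 had 11.5 CPM in D3 and 6.08 CPM in A2, and Slc7a6 had 73.7 CPM in D3 and 50.6 CPM in A2. Slc1a4 was lower in D3 by 0.55 (SE 0.06, adjusted p = 6.06e-08). Slc38a2 did not pass the test (0.07, SE 0.06, adjusted p = 0.381), with 385 CPM in D3 and 381 CPM in A2, nor did Slc7a7 (-0.06, SE 0.05, adjusted p = 0.329), though at the EPL stage Slc7a7 was lower in D3 by 0.43 (adjusted p = 0.000119). At the ground stage alone Slc38a2 was called higher in D3, by 0.30 (adjusted p = 0.0415). Slc3a2, Slc7a3 and Slc7a5 were called higher in D3 over the 3 stages, by 0.16, 0.25 and 0.29, yet not at the EPL stage, where the differences were -0.20, -0.08 and -0.00.

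Of 30 genes of amino acid sensing to mTORC1 that were tested, 8 rose and 9 fell in naive against ground cells (median -0.06), and 16 rose and 4 fell in EPL against naive cells (median 0.19, beside 0.01 over all genes tested). Over all genes tested 31.7% rose and 31.8% fell in naive against ground cells, and 27.1% rose and 24.1% fell in EPL against naive cells, and the same shares stand beside the counts of the next lists. Among the 16 were Rragc and Rragd, GTPases that bring mTORC1 to the lysosome, by 0.38 and 0.82 (adjusted p = 0.000225 and 3.71e-09, edgeR). Castor1, a cytosolic arginine sensor, was also among them, but the lines differed in it (-0.72, adjusted p = 0.00114). It averaged 49.1 CPM in D3 EPL and 53.2 CPM in D3 naive cells, and 62.4 CPM in A2 EPL and 41.1 CPM in A2 naive cells. Of 11 carriers of amino acids and small peptides outside the 7 families, 7 rose and 2 fell in EPL against naive cells, with Slc15a1 and Slc32a1 as the fallers. Of 10 genes that control carrier transcripts or their surface level, 2 rose and 6 fell in naive against ground cells, and 2 rose and 3 fell in EPL against naive cells, with Atf4, Sgk1 and Trib3 as the fallers in EPL cells.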

How the data were processed

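The deposited table holds whole-number counts per gene for 21 libraries. Per the submitters' processing notes, the authors used HISAT2, SAMtools, featureCounts and GRCm38, with versions not named, and per the labels the kit was TruSeq RNA v2, which does not mark strand. Counts were analysed as deposited in R 4.3.3 with edgeR 4.0.16: TMM factors, a filter keeping 16575 genes (minimum count 10, minimum total 15, at least 99.89% of each library's counts), 1 mean per group for the 7 groups, quasi-likelihood tests and Benjamini-Hochberg adjustment over all genes tested, with calls at an adjusted p below 0.05. The SE is the log2 difference divided by the square root of F. All p-values printed are from this test unless another is named. Levels are TMM-scaled CPM, set between genes only per kb of GENCODE M21 exon. Depth limits members under about 1 CPM. Promoter windows are RefSeq, GRCm38.p6. The fit was tested on simulated data.

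The members and lists were chosen with earlier results of these data known. Named members are, per comparison, the 10 called with the largest change whose higher group reached 2 CPM, and 14 carriers fixed by name. Others named, and the make-up shares, were chosen after their values were seen. Alternatives were RLE and total-count scaling, other filters, DESeq2 1.42.0, single lines or stages, a replicate block and leaving out libraries. No 2 libraries of the same group were duplicates (chi-square per degree of freedom at least 2.913). Pairs from different groups were not checked in this way. Values of 1 member are not reported here, though counts over members include it.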

Additional observations from a re-analysis of the deposited data

Results flagged for a closer look

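For 15 results the change of a member differed between the lines by the interaction of line and stage (edgeR, adjusted p below 0.05). Each value is the D3 change minus the A2 change on the log2 scale. In naive against ground cells these were Slc1a3 at 1.07 (adjusted p = 0.000893) and Slc36a1 at -0.53 (0.0278). Slc36a1, a proton-coupled carrier of small amino acids, fell by 0.79 in D3 and by 0.25 in A2, and its difference was called in 12 of the 21 fits that leave out 1 library. Slc1a3 was called in all 21.

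In EPL against naive cells the changes below those of A2 were Slc7a1 at -0.76, Slc7a7 at -0.55, Slc3a2 at -0.53, Slc7a5 at -0.48 and Slc6a8 at -0.35, of which Slc6a8 was called in 19 of 21 such fits and the others in 21. Changes above those of A2 were Slc1a3 at 0.79, called in 21 fits, Slc6a15 at 0.65 in 20, Slc7a8 at 1.39 in 16, Slc36a4 at 1.10 in 10, Slc36a1 at 0.44 in 9, Slc43a3 at 0.80 in 6, Slc43a2 at 0.51 in 5 and Slc7a2 at 0.90 in 4. Slc36a4 rose by 1.03 in D3 and changed by -0.07 in A2. No other rule for closer inspection applied, since each group holds 3 libraries.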

How the results depend on the processing

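The alternatives gave 190 results for single named members. Of these, 135 kept their side of the threshold under every alternative run, and the calls among them kept their direction. Direction was not compared where a result was not called either way. Under at least 1 alternative, 36 of 148 calls were lost, 12 others were gained and 9 calls changed sign. The sign changes were, with D3 alone, Slc7a5 in EPL against ground (-0.01). With A2 alone they were Slc3a2 (0.03) and Slc7a5 (0.06) in EPL against naive. With total-count scaling it was Slc1a4 in EpiSC against ground (0.04). In D3 against A2 they were Slc3a2 (-0.20), Slc7a3 (-0.08), Slc7a5 (-0.00) and Slc7a8 (0.60) at the EPL stage and Slc6a8 (0.02) at the naive stage. The cause was not tested. Counts of members called moved by over 1.5 times with A2 alone in EPL against naive (15, main 30) and at the ground stage alone in D3 against A2 (16, main 25), and the cause was not tested. Leaving out 1 library gave 32 to 35 calls in naive against ground, 35 to 39 in EPL against ground, 26 to 31 in EPL against naive, 31 to 37, 40 to 43 and 32 to 34 in EpiSC against EPL, ground and naive, 22 to 26 in D3 against A2, 2 to 3 and 7 to 16 in the interactions for naive against ground and EPL against naive, and 45 to 46 in any comparison (main 44), where the members tested changed. Slc6a16, which passed the filter on low counts through groups where it was high, lost its call in EPL against naive in 13 of these fits. The series' design text calls the samples paired without saying how. Same-numbered libraries did not deviate together on average (63 pairs, mean correlation -0.00992, 8 above 0.1, highest 0.363). A pairing by another key could not be checked. With a replicate block there were 28 calls in EPL against naive and 13 in its interaction. DESeq2 gave 28 and 14. Depth limits the 8 members not tested.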
